A study of Mus musculus with 12 samples.

Results

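The genes for epithelial oxidases, a peroxidase and a nitric oxide synthase were followed in the colonic epithelium of mice that lacked the ETS-family transcription factor Ehf in the intestine and in 2 kinds of control. The set was 9 of the 55304 gene symbols in the count tables, taken by name: Lpo, Duox2, Duoxa2, Duoxa1, Nox1, Noxo1, Noxa1, Cyba and Nos2. They were chosen by role with their CPM in the 3 groups already known, and Lpo with its low CPM in EHF IKO in view, so the values of Lpo in that contrast are given as a description with no test. For the other genes the adjusted p comes from a fit across all genes, and it is not independent evidence that the set responds. All 9 had enough counts to be tested.

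The samples were 12 C57BL/6 mice aged 6 weeks, 4 in each of 3 groups. Control-OIL mice were labelled wild-type, had source names that begin with EVCER and were given sunflower oil. EHF IKO mice had the same source prefix, were labelled as Ehf intestinal knockouts and were given tamoxifen. Control-TMX mice were labelled wild-type, came from the VilCreER source and were also given tamoxifen, and the series text adds them to account for effects of tamoxifen itself. That text names the line as Villin CreERT2, a Cre recombinase that tamoxifen activates and that the Villin promoter drives in intestinal epithelium. EHF IKO and Control-TMX therefore differed by Ehf and by source line, EHF IKO and Control-OIL by Ehf and by tamoxifen, and Control-TMX and Control-OIL by tamoxifen and by source line, which cannot be told apart here. The epithelium was freed from the opened colon with EDTA, and total RNA was sequenced.

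The library totals ran from 7421411 to 10344161 counted reads, and mitochondrial genes took 10.7% to 26.3% of them. Levels are in counts-per-million (CPM), scaled with TMM library factors, as mean ± SD over 4 mice, and log2 fold changes are ± SE from edgeR's quasi-likelihood test with Benjamini-Hochberg adjustment over 15743 genes. Genes with an adjusted p under 0.05 in this fit of all 12 libraries are said to have risen or fallen. Where groups are said not to overlap, the share of all genes with such a gap was not counted. The labels give no sex, and by Xist and the Y-linked genes each group held females as replicates 1 and 2 and males as 3 and 4. EHF IKO replicate 2 stood apart, with a count in 36109 genes against 23588 to 25966 in the other libraries. It also had 10.4% of its counts in 12 genes. These were picked for being far higher there, so their share of at most 0.114% in any other library follows from the choice. Ehf was counted at 428 ± 46.4, 345 ± 21.0 and 341 ± 30.1 CPM in Control-OIL, Control-TMX and EHF IKO, but the counts cover the whole gene and so do not measure the deletion. The 10 epithelial markers, none at 0, summed to 7100 to 8470 CPM in Control-OIL, 8490 to 9280 for Control-TMX and 9470 to 10800 among the EHF IKO libraries, and all 10 had higher estimates in EHF IKO than in either control. In bulk RNA, fewer cells of a type and less RNA per cell cannot be told apart.

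These genes make the reactive oxygen and nitrogen species that the intestinal epithelium releases toward the lumen. Duox2 is an NADPH oxidase of the apical membrane that releases hydrogen peroxide and needs the maturation factor Duoxa2 to leave the endoplasmic reticulum, and lactoperoxidase, the product of Lpo, is a secreted haem peroxidase that uses hydrogen peroxide to oxidise thiocyanate into an antibacterial product. Nox1 makes superoxide together with the membrane partner encoded by Cyba, the organiser Noxo1, the activator Noxa1 and the small GTPase Rac1. Nos2 makes nitric oxide from arginine, and in the gut Duox2, Duoxa2 and Nos2 are known to be induced by microbes and by cytokines.

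RefSeq promoter sequences were matched for 8 of the 9 genes, all but Nos2. Those of Lpo, the gene that differed most between the groups, and of Duoxa2 are shown because the results turn on both genes. Each sequence is the 250 bases before the RefSeq start on GRCm38.p6, 5′ to 3′ on the gene's own strand, with the ETS core GGAAG, on either strand, in capitals.
Lpo: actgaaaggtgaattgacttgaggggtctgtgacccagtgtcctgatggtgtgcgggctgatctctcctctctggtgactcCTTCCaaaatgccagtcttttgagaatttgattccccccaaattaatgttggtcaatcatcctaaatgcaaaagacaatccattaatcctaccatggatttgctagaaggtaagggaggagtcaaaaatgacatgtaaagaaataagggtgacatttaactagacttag
Duoxa2: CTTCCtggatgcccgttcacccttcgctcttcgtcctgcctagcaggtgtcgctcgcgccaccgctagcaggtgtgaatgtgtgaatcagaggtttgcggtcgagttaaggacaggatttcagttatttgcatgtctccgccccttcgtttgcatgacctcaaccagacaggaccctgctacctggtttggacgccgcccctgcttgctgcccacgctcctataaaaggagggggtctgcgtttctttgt
The Lpo window is chr11:87826115-87826364 on the minus strand. It lies outside the exons of Lpo but inside the longer Ensembl gene body. The Duoxa2 window is chr2:122298650-122298899 on the plus strand. Each held 1 match of GGAAG, on the strand opposite to the gene, beginning at base -169 in Lpo and at base -250 in Duoxa2, counted back from the start. Neither held the longer form GGAAGT or the STAT-type TTCNNNGAA. Among the other matched genes, Nox1, Noxo1, Noxa1 and Cyba also held GGAAG, while Duox2 and Duoxa1 did not. In windows of the same length before all 32851 RefSeq starts, 64.1% held GGAAG, which also counts every GGAAGT, 19.7% held GGAAGT and 7.02% held TTCNNNGAA on either strand. A match of these letters is a description and not a binding site.

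Lpo (ENSMUSG00000009356, chromosome 11, 87806428 to 87828289, minus strand) was close to absent in EHF IKO. Its level was 30.3, 32.6, 20 and 21.5 CPM in Control-OIL replicates 1 to 4, and 15.7, 23.0, 20.8 and 17.8 CPM in Control-TMX. In EHF IKO it was 1.51, 1.38, 0.665 and 0.94 CPM. Each EHF IKO library lay below all 8 control libraries, and the reads behind these levels were 13, 10, 5 and 7 in EHF IKO, and 101 to 295 in each control library. The group levels were 26.1 ± 6.29, 19.3 ± 3.22 and 1.12 ± 0.392 CPM (SD, n = 4). The log2 fold change was -4.51 ± 0.25 against Control-OIL, a 22.7-fold lower level, and -4.07 ± 0.26 against Control-TMX, a 16.8-fold lower level. Over the 21 alternative fits of each of these contrasts it stayed between -4.70 and -3.89. Between the controls it was -0.43 ± 0.18 (edgeR adjusted p = 0.342), and those groups overlapped. Lpo was lower in EHF IKO within each sex, at 1.38 to 1.51 CPM in females against 15.7 to 32.6 in control females and at 0.665 to 0.94 CPM in males against 17.8 to 21.5 in control males.

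**Figure D1:**
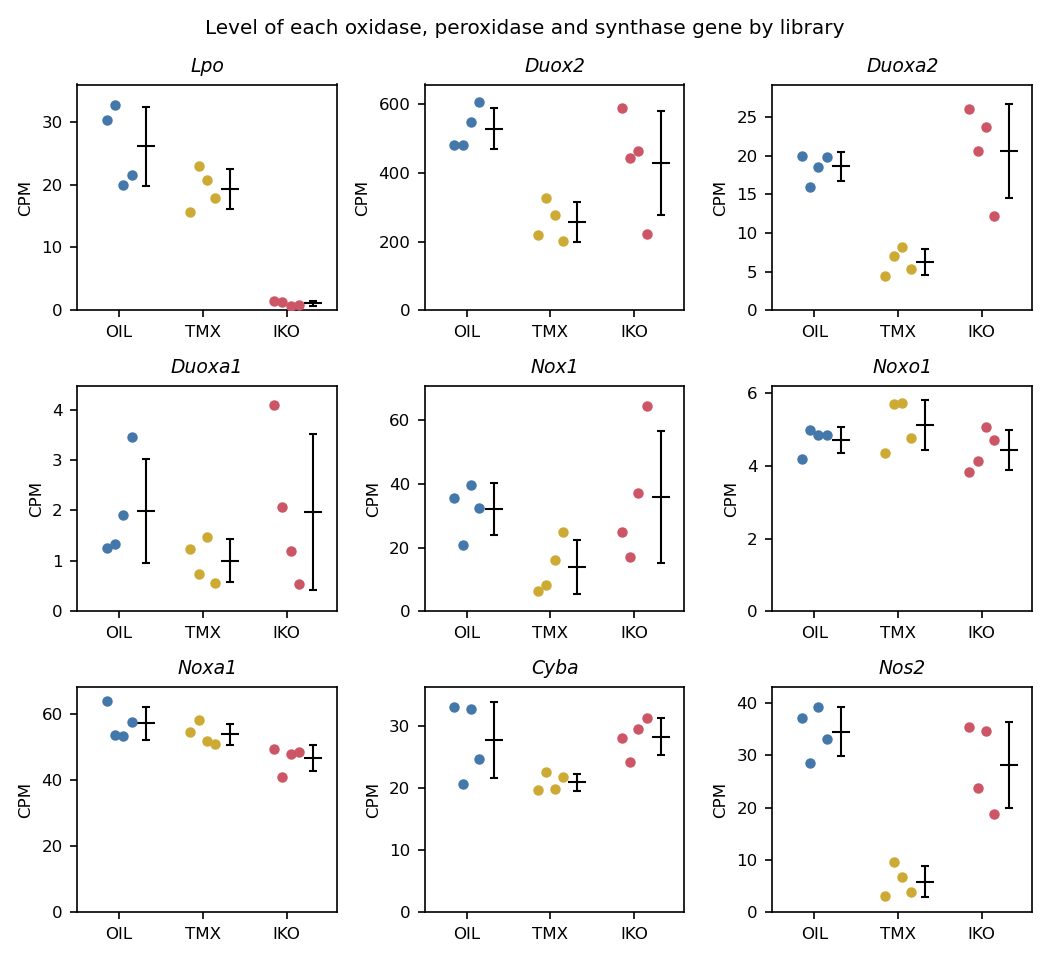
Level of each of the 9 genes in CPM (y axis, from 0) in the 4 libraries of Control-OIL (OIL, blue), Control-TMX (TMX, yellow) and EHF IKO (IKO, red), each point 1 mouse, in the order of replicates 1 to 4. The black bars give the mean ± SD. Lpo is at or below 1.51 CPM in all EHF IKO libraries, while Nos2 and Duoxa2 are low in Control-TMX.

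Other haem peroxidases were little read. Mpo, of neutrophils, had 5, 2 and 5 reads over the libraries of Control-OIL, Control-TMX and EHF IKO, and Epx, of eosinophils, had 2, 9 and 6, so neither could be tested. Pxdn encodes peroxidasin, which crosslinks basement membrane collagen. Pxdn was at 4.11 ± 0.738, 4.51 ± 0.84 and 5.38 ± 1.35 CPM, with a log2 fold change of 0.33 ± 0.20 for EHF IKO relative to both controls' mean (edgeR adjusted p = 0.598). Mpo and Epx flank Lpo, with 2014 and 35710 bases between the gene bodies. Of 7 genes listed beside Lpo, 3 were tested, Mks1, Supt4a and Dynll2, and none passed in any contrast. Against Control-OIL their log2 fold changes in EHF IKO were 0.01 ± 0.18, -0.10 ± 0.19 and -0.02 ± 0.17.

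Of 5 carriers and channels listed for a possible part in thiocyanate or iodide transport, 3 were tested and none passed. Whether each of them moves these anions in this epithelium was not tested. Ano1, a calcium-activated chloride channel, was at 212 ± 23.6, 219 ± 31.6 and 246 ± 16.9 CPM. The sodium-coupled carrier gene Slc5a8 was at 372 ± 89.2, 287 ± 13.5 and 248 ± 49.4 CPM (edgeR adjusted p = 0.088 for EHF IKO against Control-OIL). The chloride channel Cftr, which also conducts thiocyanate, was at 170 ± 13.8, 148 ± 24.2 and 156 ± 37.1 CPM.

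Across the 12 libraries, the genes whose log2 CPM most resembled that of Lpo were St6galnac6 (Pearson r = 0.962), Mmp28 (0.960), Chn2 (0.953) and Cd177 (0.952). St6galnac6 encodes a sialyltransferase, Mmp28 a matrix metalloproteinase, Chn2 a Rac-regulating chimaerin and Cd177 a surface glycoprotein. These correlations describe 12 libraries in 3 groups and include the step between the groups.

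The Duox genes lie in 1 cluster on chromosome 2. Duox2 (ENSMUSG00000068452, 122279247 to 122298449, minus strand) and Duoxa2 (ENSMUSG00000027225, 122298900 to 122302885, plus strand) are head to head with 450 bases between them. Duoxa1 (ENSMUSG00000027224, 122302191 to 122313730, minus strand) runs into the end of Duoxa2, and 682 exonic bases are shared, 42.8% of the exonic length of Duoxa2 and 17.1% of that of Duoxa1. The reads were counted without strand, so reads in the shared stretch belonged to both genes and were left out. Per kilobase of exon, Duox2 was the most abundant of the 9 genes, at a mean of 59.8 CPM per kb over the 12 libraries, and its levels in single libraries ran from 29.7 to 89.3.

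Duox2 was lower in Control-TMX than in Control-OIL, and EHF IKO lay between them with a wide spread. It was at 480, 480, 547 and 605 CPM in Control-OIL replicates 1 to 4 and at 220, 328, 277 and 201 CPM in Control-TMX. The EHF IKO libraries were at 588, 443, 463 and 223 CPM. The control groups did not overlap, and EHF IKO replicate 4 fell among the Control-TMX libraries while the other 3 lay above them. The log2 fold change between Control-TMX and Control-OIL was -1.04 ± 0.24 and did not pass in edgeR (adjusted p = 0.135). It passed in 4 of 21 alternative fits, and over the 21 the adjusted p reached 0.338. Those that passed were DESeq2 (adjusted p = 0.00368) and edgeR with these groups alone (adjusted p = 0.0262). The others were edgeR with no filter on low counts (adjusted p = 3.6e-06) and without EHF IKO replicate 4 (adjusted p = 0.0051). EHF IKO differed from Control-TMX by 0.74 ± 0.23 (edgeR adjusted p = 0.208). This passed in 2 of 21 alternative fits, with no filter (adjusted p = 0.00315) and without EHF IKO replicate 4 (adjusted p = 0.00775), and reached 0.444 among the rest. From Control-OIL, EHF IKO differed by -0.30 ± 0.23 (edgeR adjusted p = 0.712).

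Duoxa2 fell in Control-TMX against Control-OIL and was higher in EHF IKO than in Control-TMX. It was at 20, 16, 18.6 and 19.9 CPM in Control-OIL, at 4.5, 7.04, 8.26 and 5.33 CPM across Control-TMX and at 26.1, 20.6, 23.7 and 12.2 CPM across EHF IKO. Each Control-TMX library lay below all 8 others. The log2 fold change was -1.56 ± 0.23 between the controls, a 2.94-fold lower level (edgeR adjusted p = 0.0129), and 1.71 ± 0.23 in EHF IKO against Control-TMX, a 3.26-fold higher level (adjusted p = 0.00183). Both contrasts use the same Control-TMX libraries. Against Control-OIL, EHF IKO differed by 0.15 ± 0.21 (adjusted p = 0.879). The difference between the controls lost its call without Control-TMX replicate 1 (adjusted p = 0.056) or 2 (adjusted p = 0.0706), while that from Control-TMX passed in all 21 alternative fits. Set against both controls' mean, Duoxa2 rose by 0.93 ± 0.18 (adjusted p = 0.0164), a call lost without EHF IKO replicate 1 (adjusted p = 0.0805) or 3 (adjusted p = 0.0778).

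**Figure D2:**
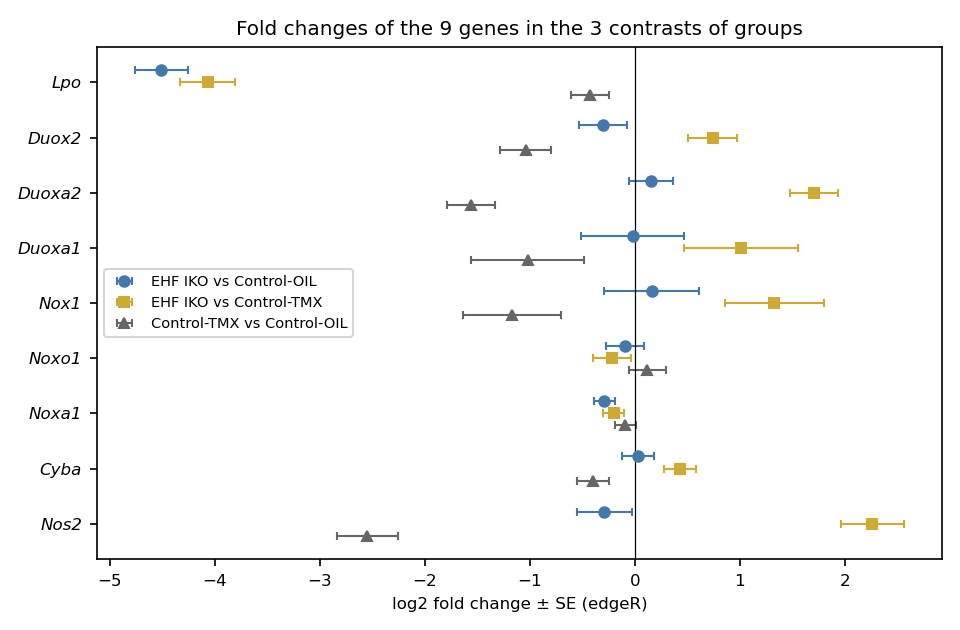
Log2 fold change ± SE of each gene (x axis) from 1 edgeR fit of 12 libraries, for EHF IKO against Control-OIL (circles), EHF IKO against Control-TMX (squares) and Control-TMX against Control-OIL (triangles). Lpo is lower in EHF IKO against both controls, whereas Nos2 and Duoxa2 lie near 0 against Control-OIL and above 0 against Control-TMX.

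The reads of Duoxa2 per 100 reads of Duox2, 2 genes that are read in opposite directions from neighbouring starts, separated the 3 groups. This ratio does not depend on the library total, and it was chosen after the values were seen and is given without a test. It was 4.16, 3.34, 3.40 and 3.30 in Control-OIL, 2.05, 2.15, 2.98 and 2.65 for Control-TMX, and 4.44, 4.65, 5.11 and 5.48 for EHF IKO. No 2 groups overlapped, and the group means were 3.55 ± 0.409, 2.46 ± 0.436 and 4.92 ± 0.467. In EHF IKO replicate 4, where both genes had their lowest level of that group, the ratio was the highest of the 12. Reads of Nos2 per 100 of Duox2 were 6.57 ± 1.04 in Control-OIL, 2.18 ± 0.651 for Control-TMX and 6.79 ± 1.36 for EHF IKO, so Control-TMX stood apart and the other groups overlapped.

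**Figure D3:**
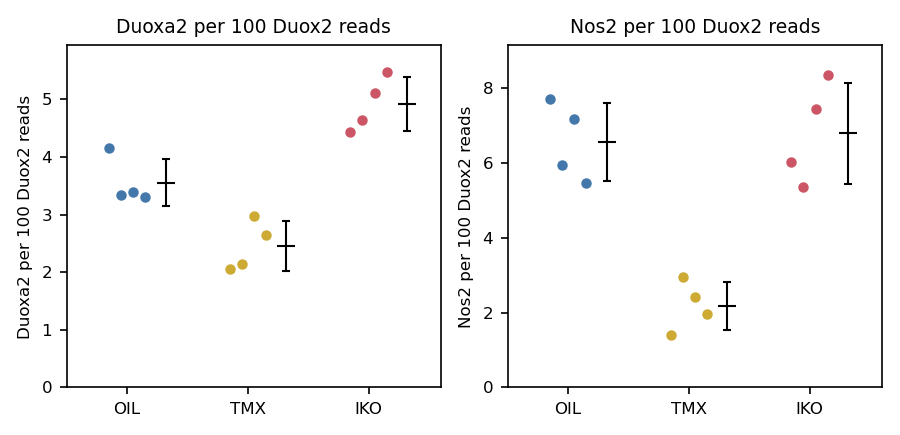
Reads of Duoxa2 (left) and of Nos2 (right) per 100 reads of Duox2 in each library (y axis from 0), with the group mean ± SD in black. For Duoxa2 the 4 EHF IKO libraries, at 4.44 to 5.48, lie above all Control-OIL libraries, at 3.30 to 4.16, and these above all Control-TMX libraries, at 2.05 to 2.98.

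The second maturation factor gene, Duoxa1, and its oxidase partner Duox1 were weakly read. Duoxa1 had 4 to 35 reads per library and was at 1.99 ± 1.02, 1.01 ± 0.429 and 1.97 ± 1.54 CPM. In EHF IKO its log2 fold change was -0.02 ± 0.49 from Control-OIL (edgeR adjusted p = 0.995) and 1.01 ± 0.54 from Control-TMX (adjusted p = 0.501), and these SEs were larger than the 0.23 of Duox2 in the same contrasts. The highest and the lowest library, at 4.08 and 0.537 CPM, were both in EHF IKO. Duox1 was at 1.64 ± 0.468, 1.32 ± 0.713 and 1.16 ± 0.395 CPM and passed in no contrast. Of the 10 genes listed in and beside the cluster, 8 were tested. Duoxa2 was the only one of them to pass in any contrast, and in Control-TMX against Control-OIL all 8 had a lower estimate, with a median of -0.55 where the median of all genes tested was -0.01. Among them, Sord, for sorbitol dehydrogenase, was at 68.8 ± 5.83, 61.8 ± 9.96 and 59.5 ± 6.91 CPM.

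By likeness of log2 CPM over the 12 libraries, Duox2 was nearest to Prkch (Pearson r = 0.884), a protein kinase C gene, Hnrnpr (0.877), an RNA-binding protein gene, Nos2 (0.876) and Duoxa2 (0.875). Nos2 was nearest to Duoxa2 (0.964), followed by Zfp991 (0.899), Muc13 (0.891), for a membrane mucin, and Clca4b (0.881). The libraries share their groups, so these values describe the pattern over the groups as well as over mice.

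Nos2 (ENSMUSG00000020826, chromosome 11, 78920787 to 78960254, plus strand), the inducible nitric oxide synthase, had the largest difference of the 9 genes between the controls. It was at 37.0, 28.5, 39.2 and 33.1 CPM in Control-OIL, with 258 to 335 reads per library. In Control-TMX it was at 3.11, 9.64, 6.67 and 3.93 CPM, with 20 to 78 reads. EHF IKO was at 35.4, 23.7, 34.5 and 18.7 CPM. All Control-TMX libraries lay below all others, while EHF IKO and Control-OIL overlapped. The log2 fold change was -2.55 ± 0.29 between the controls, a 5.86-fold lower level in Control-TMX (edgeR adjusted p = 0.00404), and 2.26 ± 0.30 in EHF IKO against Control-TMX, 4.79-fold (adjusted p = 0.00232). Both calls held in all 21 alternative fits. Against Control-OIL, EHF IKO differed by -0.29 ± 0.26 (adjusted p = 0.762), and against the mean of both controls by 0.98 ± 0.23 (adjusted p = 0.0504). The last passed in 6 of 20 alternative fits, among them DESeq2 (adjusted p = 0.0032), limma-voom (adjusted p = 0.0384), and edgeR without Control-TMX replicate 2 (adjusted p = 0.013) or EHF IKO replicate 4 (adjusted p = 0.0206). Within each sex the order was the same, with Control-TMX at 3.11 to 9.64 CPM in females and 3.93 to 6.67 in males against 28.5 to 37.0 and 33.1 to 39.2 in Control-OIL.

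Of 14 genes of nitric oxide synthesis and its supply, 13 were tested and Nos2 was the only one to pass. Nos1, the neuronal synthase, had few reads, at 0.486 ± 0.243, 1.52 ± 0.494 and 1.52 ± 1.14 CPM, and its control groups did not overlap, with the higher values in Control-TMX (log2 fold change 1.58 ± 0.54, edgeR adjusted p = 0.266). The endothelial synthase gene Nos3 had 1, 5 and 3 reads in the 3 groups. Pts, which acts in synthesis of the cofactor tetrahydrobiopterin, was at 38.7 ± 5.15, 37.1 ± 3.57 and 35.6 ± 1.88 CPM. Slc7a1, an arginine carrier, was at 38.5 ± 3.17, 28.4 ± 5.13 and 30.2 ± 4.34 CPM, with no overlap between the controls (adjusted p = 0.248). As for Nos1, the share of all genes with such a gap was not counted. The list had a median log2 fold change of 0.08 between the controls, where Nos2 was at -2.55.

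Nox1 (ENSMUSG00000031257, chromosome X, 134086421 to 134221956, minus strand) varied widely within the groups. It was at 35.6, 20.7, 39.5 and 32.4 CPM in Control-OIL, at 6.37, 8.40, 16 and 25 CPM across Control-TMX and at 24.8, 17.1, 37.0 and 64.5 CPM across EHF IKO. Every pair of groups overlapped. The log2 fold change was -1.17 ± 0.47 between the controls (edgeR adjusted p = 0.338), 1.33 ± 0.47 in EHF IKO against Control-TMX (adjusted p = 0.294) and 0.16 ± 0.45 against Control-OIL (adjusted p = 0.947). The last was -0.28 without EHF IKO replicate 4, the library with the highest Nox1 and the lowest Duox2 and Nos2 of its group. None of these passed in any alternative fit.

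Nox1 was higher in males than in females in 2 of the 3 groups. Both males were above both females in Control-TMX, at 16 to 25 against 6.37 to 8.40 CPM, and in EHF IKO, at 37.0 to 64.5 against 17.1 to 24.8 CPM. In Control-OIL males were at 32.4 to 39.5 and females at 20.7 to 35.6 CPM, which overlapped. Nox1 was not the only gene with such gaps. For Lpo females were higher in Control-OIL, at 30.3 to 32.6 CPM against at most 21.5 in males. They were also higher in EHF IKO, at 1.38 to 1.51 against 0.665 to 0.94 CPM, and the sexes overlapped in Control-TMX. Duoxa1 was higher in males in Control-OIL and in females in EHF IKO. Sex was read from the data and each pair holds 2 mice, so no test is given. Gaps between pairs this small can arise by chance. Within a sex, Nox1 in Control-TMX was below Control-OIL in females and in males, and in EHF IKO it overlapped Control-OIL in both.

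**Figure D4:**
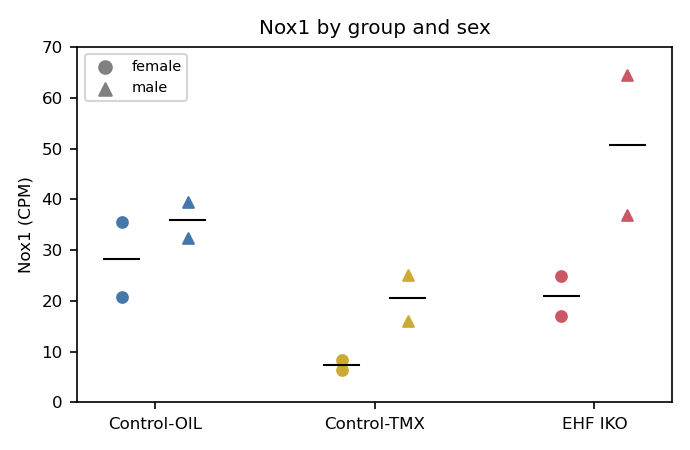
Nox1 in CPM (y axis, from 0) by group, with females (circles) and males (triangles) set side by side and black lines at the mean of each pair of mice. Males lie above females in Control-TMX and in EHF IKO, and the 2 pairs overlap in Control-OIL.

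The genes most like Nox1 over the 12 libraries were Kif23 (Pearson r = 0.946), Ddias (0.942), Tubb5 (0.941) and Asf1b (0.939). Kif23 encodes a kinesin of cell division, Ddias a protein named as a suppressor of apoptosis after DNA damage, Tubb5 a tubulin and Asf1b a histone chaperone. Markers of the crypt base and of dividing cells, 7 in all, were summed. The sums were 692 to 782 CPM in Control-OIL, 367 to 806 for Control-TMX and 629 to 1000 for EHF IKO. No marker was at 0 and none passed in any contrast. All 7 had a lower estimate in Control-TMX than in Control-OIL, with a median of -0.40 where that of all genes was -0.01. The part of these markers in the Nox1 values was not tested.

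The partners of Nox1 had smaller differences between the groups. Cyba (ENSMUSG00000006519, chromosome 8, 122424776 to 122432930), whose product p22phox stabilises the oxidase, was at 33.0, 20.6, 32.7 and 24.6 CPM in Control-OIL, at 19.7, 22.5, 19.8 and 21.7 CPM across Control-TMX and at 28.0, 24.2, 29.5 and 31.2 CPM across EHF IKO. All EHF IKO libraries lay above all Control-TMX libraries, with a log2 difference of 0.43 ± 0.15 (edgeR adjusted p = 0.249), and overlapped Control-OIL (0.03 ± 0.15, adjusted p = 0.974). Noxa1 (ENSMUSG00000036805, chromosome 2, 25085667 to 25095149), the activator, was at 64.0, 53.8, 53.5 and 57.6 CPM in Control-OIL, at 54.5, 58.3, 51.9 and 50.9 CPM across Control-TMX and at 49.6, 40.9, 48.0 and 48.5 CPM across EHF IKO. Its EHF IKO libraries lay below all 8 controls, by a small margin (log2 difference -0.29 ± 0.10, adjusted p = 0.175 against Control-OIL, and -0.20 ± 0.10, adjusted p = 0.425 against Control-TMX). Neither Cyba nor Noxa1 passed, and the share of all genes with such gaps between groups was not counted. Noxo1 (ENSMUSG00000019320, chromosome 17, 24696234 to 24700529), the organiser, was at 4.71 ± 0.353, 5.13 ± 0.682 and 4.44 ± 0.545 CPM with no difference past an adjusted p of 0.696. Some 70.4% of the exonic length of Noxo1 lies within exons of Tbl3 on the other strand, and 12.1% of that of Nox1 within exons of Cstf2, so reads there were left out and the Noxo1 level stands for the rest of the gene.

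Per kilobase of exon, the order of the 9 genes depended on the group below the first 3 places. Duox2, Noxa1 and Cyba came first in each group, at 78.0, 35.4 and 26.7 CPM per kb in Control-OIL, 37.9, 33.3 and 20.1 for Control-TMX, and 63.4, 28.9 and 27.1 for EHF IKO. In Control-OIL there followed Duoxa2 at 11.7 CPM per kb, Nox1 at 9.69, Lpo at 8.33, Nos2 at 7.77, Noxo1 at 1.56 and Duoxa1 at 0.5. Control-TMX had Lpo at 6.16 CPM per kb, Nox1 at 4.21, Duoxa2 at 3.95, Noxo1 at 1.7, Nos2 at 1.31 and Duoxa1 at 0.253. EHF IKO had Duoxa2 at 13.0 CPM per kb, Nox1 at 10.8, Nos2 at 6.32, Noxo1 at 1.47, Duoxa1 at 0.495 and Lpo, last of the 9, at 0.359. Over all 12 libraries the range of each gene overlapped that of its neighbour in the order of means, except between Cyba (19.0 to 31.7 CPM per kb) and Duoxa2 (2.83 to 16.4), and between Noxo1 (1.28 to 1.9) and Duoxa1 (0.135 to 1.03). Bases shared with another gene count in these lengths but give no reads, so Noxo1 (70.4% shared), Duoxa2 (42.8%), Duoxa1 (17.1%), Nox1 (12.1%) and Noxa1 (3.09%) are understated, and the place of Noxo1 rests on its full length.

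Lpo was chosen with its EHF IKO values known and is left out of the counts in the contrasts of EHF IKO. Of the other 8 genes none rose or fell relative to Control-OIL, where 0.921% of all genes tested rose and 0.762% fell, 1.68% together. Relative to Control-TMX 2 of the 8 rose (Duoxa2 and Nos2) and none fell, where 0.33% of all genes rose and 0.47% fell, 0.8% together. Relative to the mean of both controls 1 rose (Duoxa2) and none fell, where 0.858% of all genes rose and 0.858% fell, 1.72% together. Between the controls 2 of the 9 were lower in Control-TMX (Nos2 and Duoxa2), where 0.0445% of all genes were lower, and none was higher, where 0.0381% were higher and 0.0826%, 13 genes, passed. The median log2 fold change of the 9 was -0.09 from Control-OIL and 0.74 from Control-TMX in EHF IKO, and -1.02 between the controls, where the medians of all genes were -0.01, 0.02 and -0.01. Nothing is read from these counts, because the genes were listed with results known.

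Other NADPH oxidase genes are given by their levels. The phagocyte subunits Cybb, at 1.24 ± 0.478, 0.942 ± 0.418 and 1.85 ± 0.937 CPM, and Ncf1, at 1.14 ± 0.24, 1.04 ± 0.294 and 1.89 ± 0.307 CPM, had higher estimates in EHF IKO and did not pass. Rac1 was at 160 ± 10.6, 155 ± 7.37 and 154 ± 9.97 CPM. Nox3 and Nox4 had too few reads to be tested. Nox3 had 3 reads, all in 1 EHF IKO library, at 0.414 CPM where the group median was 0. Nox4 had 1, 5 and 12 reads over the 3 groups. In EHF IKO its highest library was at 1.24 CPM and the median at 0.183, so that count rests mostly on 1 library.

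Genes that remove hydrogen peroxide did not pass in any contrast. Of 20 such genes 19 were tested, and 15 had a higher estimate in EHF IKO against Control-OIL and 13 against Control-TMX, with medians of 0.07 and 0.21. Prdx6, a peroxiredoxin, was at 754 ± 69.4, 915 ± 131 and 740 ± 77.3 CPM, and Txn1, thioredoxin, at 326 ± 37.8, 294 ± 28.9 and 341 ± 56.0 CPM.

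Among 12 genes of the Nrf2 oxidant response, none passed relative to Control-OIL, 1 rose relative to Control-TMX, where 0.33% of all genes rose, and 2 rose relative to the mean of both controls, where 0.858% did. Slc7a11, the cystine carrier that feeds glutathione synthesis, was at 2.43 to 6.02 CPM in Control-OIL, 1.36 to 4.96 for Control-TMX and 6.25 to 11.7 for EHF IKO. It rose by 1.68 ± 0.36 on the log2 scale against Control-TMX (edgeR adjusted p = 0.0391) and by 1.40 ± 0.29 relative to both controls' mean (adjusted p = 0.0229, and 0.0779 without EHF IKO replicate 1). The call against Control-TMX was lost in 8 of 12 fits that left out 1 library, up to an adjusted p of 0.14 without Control-TMX replicate 2. G6pdx, for the enzyme that supplies NADPH through the pentose phosphate path, rose by 0.48 ± 0.10 relative to the mean of both controls (adjusted p = 0.0291, but 0.0788 without EHF IKO replicate 3 and above the threshold in 7 of 12 such fits). It was at 42.5 ± 4.76, 38.4 ± 4.18 and 56.5 ± 8.67 CPM.

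Of 14 receptors and adaptors for microbes and cytokines, 2 fell in EHF IKO against Control-OIL and none rose. Of all genes tested, 0.762% fell and 0.921% rose in that contrast. Nod2, a sensor of bacterial peptidoglycan, was at 6.39 ± 0.987, 5.29 ± 0.529 and 3.62 ± 0.438 CPM (log2 fold change -0.81 ± 0.19, edgeR adjusted p = 0.0404). Tlr4, the lipopolysaccharide receptor, was at 31.0 ± 3.08, 24.4 ± 2.05 and 20.8 ± 1.98 CPM (-0.57 ± 0.12, adjusted p = 0.0223). Nod2 lost its call in 9 of 12 fits that left out 1 library, up to an adjusted p of 0.136 without Control-OIL replicate 3, and Tlr4 in 5, up to 0.0782 without EHF IKO replicate 1. Against Control-TMX neither passed. Of 16 transcription factors known to act on these genes or in this epithelium 15 were tested and none passed. Among them Hnf4a was at 601 ± 46.8, 660 ± 22.8 and 678 ± 46.2 CPM, and Cdx1 at 179 ± 27.9, 191 ± 20.9 and 129 ± 47.6 CPM.

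Other epithelial genes that microbes or the cytokine IL-22 induce had lower estimates in Control-TMX, though none passed in the edgeR fit of all 12 libraries. Of 16 such genes 11 were tested, and all 11 had a lower estimate in Control-TMX than in Control-OIL, with a median of -0.80. Reg3b, an antibacterial lectin, was at 338 to 2680 CPM in Control-OIL, 133 to 162 for Control-TMX and 148 to 472 for EHF IKO. Its log2 fold change between the controls was -3.02 ± 0.66 (edgeR adjusted p = 0.151, and 0.0481 without Control-OIL replicate 2, DESeq2 adjusted p = 0.00183). Its relative Reg3g was at -2.75 ± 0.77 (0.24 and 0.0135 by the same tools) and Retnlb, a goblet cell antibacterial protein, at -2.19 ± 0.49 (0.145 and 0.00439). For all 3 the control groups did not overlap, but the share of all genes with such a gap was not counted. Slpi, a secreted protease inhibitor, was at -0.82 ± 0.32 (edgeR adjusted p = 0.314) and passed only with no filter on low counts (edgeR adjusted p = 0.0203). Of 21 alternative fits for each gene, Reg3b passed in 2, and Reg3g, Retnlb and Slpi each passed in 1. In EHF IKO against Control-OIL 10 of the 11 had a lower estimate, and Fut2, a fucosyltransferase, fell by 0.51 ± 0.12 (adjusted p = 0.043, but lost in 7 of 12 fits that left out 1 library, up to 0.141 without EHF IKO replicate 2). In EHF IKO Reg3b was at 245 ± 154 CPM against 1180 ± 1070 in Control-OIL, while Nos2 was at 28.1 ± 8.20 against 34.5 ± 4.70, and whether these differ was not tested.

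**Figure D5:**
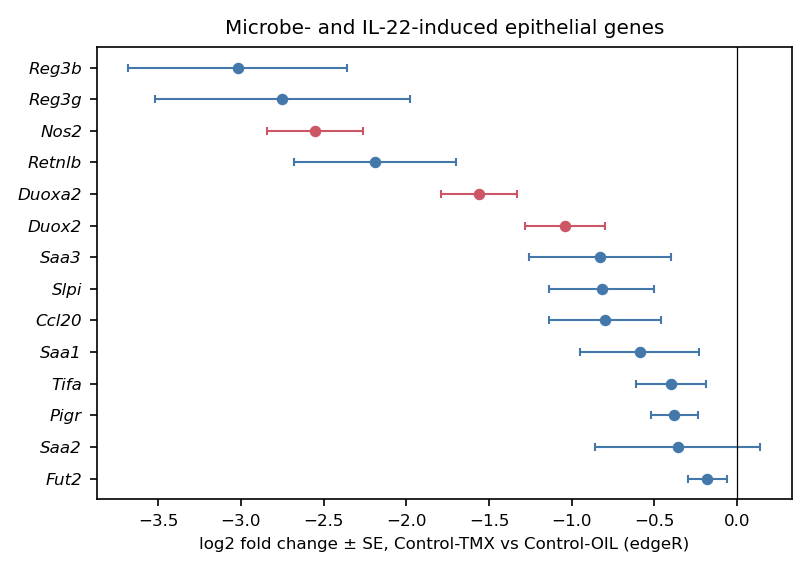
Log2 fold change ± SE in Control-TMX against Control-OIL (x axis) of the 11 tested genes induced by microbes or IL-22 (blue) and of Nos2, Duoxa2 and Duox2 (red). All 14 estimates are below 0, from -3.02 for Reg3b to -0.18 for Fut2.

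Markers of other cells gave these values beside the results. The 11 macrophage markers, none at 0, summed to 24.6 to 33.8 CPM in Control-OIL, 26.4 to 33.9 for Control-TMX and 31.7 to 50.2 for EHF IKO. Mrc1, a mannose receptor of this list, rose in EHF IKO relative to the mean of both controls (log2 fold change 1.21 ± 0.23 by edgeR, adjusted p = 0.0123, and 0.0709 without EHF IKO replicate 1). The 11 lymphocyte and plasma cell markers, mostly Igha, summed to 54.5 to 101 CPM in Control-OIL, 31.3 to 47.0 for Control-TMX and 41.8 to 149 for EHF IKO. They were thus low in the group where Nos2, Duoxa2 and Duox2 were low, and their part in that difference was not tested. The 12 stromal markers summed to 298 to 389, 467 to 722 and 421 to 985 CPM, and Col1a2 and Col3a1 rose in EHF IKO against Control-OIL, calls kept in 3 and 4 of 12 fits that left out 1 library. The 12 neutrophil markers summed to 17.2 to 41.0, 13.1 to 27.3 and 11.7 to 29.4 CPM, most of it Ly6g, with Mmp8, Elane and Retnlg at 0 in Control-OIL, Mmp8 and Elane at 0 in Control-TMX and Retnlg at 0 in EHF IKO. The 6 eosinophil markers summed to at most 5.24 CPM, with Il5ra at 0 in Control-OIL and Ccr3 at 0 in Control-TMX. Markers of surface colonocytes, where Krt20 rose in EHF IKO against Control-OIL (a call kept in 1 of 12 such fits), summed to 2780 to 3460, 3350 to 4930 and 3010 to 5120 CPM, and 3 markers of the distal colon to 116 to 192, 101 to 128 and 88.2 to 173 CPM. The part of all these in the levels of the 9 genes was not tested.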

How the data were processed

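The files the authors deposited hold, per the file headers, read counts for each gene symbol from featureCounts (Subread 1.6.1) over Ensembl GRCm38 release 98, unstranded (setting 0) and without reads shared by several genes. The submitters' processing notes name STAR as the aligner, with no version in the sources used here. Groups came from the labels. Nothing in the labels ties same-numbered mice of different groups to each other.

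Of 55304 symbols, 41205 had a count. The test was edgeR 4.0.16 (R 4.3.3) on the counts: filterByExpr by group, TMM factors and 1 quasi-likelihood fit of 12 libraries (robust, 9 residual degrees of freedom, biological coefficient of variation 18.3%). The fit was tested on simulated counts. Alternatives were DESeq2 size factors, DESeq2 1.42.0, limma-voom 3.58.1, no robust setting, no low-count filter, a floor of 1 on mean log2 CPM, the compared groups alone, the replicate number as a block, and leaving out each library. Sex as a covariate and the ratios to Duox2 were added after seeing the data.

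The 9 genes and the lists of pathway, neighbouring and marker genes were chosen with earlier results of these data known. Named were the 9 genes, up to 4 called genes per list with the smallest p or else the 2 most abundant, the neighbours of Lpo and the Duox genes, and the 4 genes most correlated with Lpo, Duox2, Nox1 and Nos2. Other genes named, such as Reg3b and Cybb, were chosen after their values were seen. A few results on listed genes are not reported here.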

Additional observations from a re-analysis of the deposited data

Results flagged for a closer look

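Of 33 sets of 4 libraries looked at, the levels of the 9 genes and the ratios to Duox2 in each group, 1 held a library far from the other 3. In Control-OIL replicate 1 there were 4.16 reads of Duoxa2 per 100 of Duox2, against 3.30 to 3.40 in the other 3 Control-OIL libraries. About 1 set in 20 is expected to be picked out in this way by chance.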

How the results depend on the processing

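Counts of genes called moved most. Relative to Control-OIL, 145 genes rose and 120 fell. These were 435 and 289 with no low-count filter, 316 and 218 with DESeq2, and 56 and 56 with those groups alone. Leaving out 1 library gave 53 to 453 and 50 to 258. Relative to Control-TMX, 52 rose and 74 fell, with 198 and 302 for no filter and 124 and 181 by DESeq2, and 19 to 80 and 31 to 82 without 1 library. Relative to the mean of both controls, 270 genes were called, with 525 and 306 for no filter and 251 and 220 by DESeq2 in the same order, and 55 to 310 and 53 to 212 without 1 library. Between the controls, 6 were higher and 7 lower in Control-TMX. There they were 270 and 171 with no filter, 121 and 75 by DESeq2, 25 and 13 with sex as a covariate, and 0 to 44 and 3 to 42 without 1 library. Higher calls there were 1 with limma-voom and 0 with a mean log2 CPM of at least 1. The highest of these ranges came without EHF IKO replicate 4, except the 42, which came without Control-OIL replicate 2.

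With the replicate number as a block, EHF IKO had 92 rises and 81 falls relative to Control-OIL, 32 and 40 relative to Control-TMX, and 77 and 71 relative to the mean, and 9 and 9 genes were called between the controls. The labels do not pair the mice by number, though the numbers follow sex in each group. Correlations of same-numbered deviations ran from -0.406 to 0.405, and 5 of 12 libraries were nearest to one of their own number. These values cannot settle whether the mice were paired. Reversals all came from leaving out 1 library, in differences that passed in no fit. Relative to Control-OIL, Cyba ranged from -0.09 to 0.12, with -0.02 without replicate 4 of Control-OIL or of EHF IKO. Duoxa1 ranged from -0.67 to 0.42, with 0.16 and 0.29 without EHF IKO replicates 3 and 4, and Nox1 from -0.28 to 0.39. Relative to the mean, Duoxa1 ranged from -0.16 to 0.80. The cause was not tested. Few reads limit what can be seen of Duoxa1 and Noxo1.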
